A study of Mus musculus with 6 samples.

Results

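The Sp100-Sp110-Sp140 cluster is a group of interferon-inducible nuclear body genes on mouse chromosome 1. The 5 genes considered here are Sp100, Sp110, Sp140, Gm16028 and G530012D18Rik. They were picked because Sp110 and Gm16028 were far higher in the libraries labelled KO, so their own differences between genotypes are given as a description, with no test. Of the 5 genes, 4 had counts among the 26814 gene symbols of the series. The level of G530012D18Rik was not analysed here, and only its annotated sequence is described. A question posed for these genes was whether the change stayed with the chromosomal neighbourhood or moved with interferon-induced genes elsewhere in the genome, and both sets were compared with the cluster.

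The SP100 family proteins are chromatin-associated nuclear proteins that share a SAND domain. SP100 is a permanent component of PML nuclear bodies, the small dot-like structures that PML and SUMO-modified proteins build in the nucleus. SP110 and SP140 are known mainly from leukocytes, and Sp110 was described in mice through resistance to intracellular bacteria. Interferon binds its receptor, activates JAK kinases, and sends transcription factors such as STAT2 and IRF9 to response elements near the genes it induces, Sp100 among them.

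RNA of the top lip came from 3 adult female mice homozygous for the targeted allele Gtf2ird1 tm1Hrd (KO) and 3 wild type (WT) adult females, all on a C57BL/6J background, and each mouse gave 1 library (WT1 to WT3, KO1 to KO3). The total counts on genes ranged from 20164081 in KO1 to 29491767 in KO2, and a count of 3 in a library corresponded to 0.0986 to 0.154 CPM (counts scaled to the library's size, with TMM factors). Such a count is the limit that a count of 0 allows, for counting error only. The targeted gene, Gtf2ird1 (chromosome 5), had 78.2, 70.2 and 70.7 CPM in WT1 to WT3 and 166, 162 and 144 CPM in KO1 to KO3, and was thus higher in each library labelled KO. A count per gene does not show whether the transcript is intact, so this level does not check the label. Directions are given for libraries by their label. The tissue held epidermis by its markers, with 23454 to 27430 CPM summed over 6 keratinocyte genes in the WT libraries and 35648 to 48484 CPM in the KO libraries. None of the 6 was called by the quasi-likelihood test of edgeR, and 3 had an unadjusted p under 0.05. The sum followed the suprabasal keratins Krt1 (8019 CPM in WT and 18219 CPM in KO) and Krt10 (8715 and 13573 CPM), while the basal Krt5 was at 4888 and 4762 CPM and Krt14 at 3681 and 4093 CPM. The 4 fibroblast markers summed to 6130 to 8149 CPM in WT and 2576 to 6499 CPM in KO. The 4 skeletal muscle markers summed to 4494 to 6870 CPM in WT and 1695 to 3591 CPM in KO. KO3 stood apart from KO1 and KO2: without it, the number of genes called at an adjusted p under 0.05 went from 971 to 4891, and values without it are given below where they move a result. In a whole tissue, a larger number of cells of one type and more RNA per cell cannot be told apart.

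Sp110 rose from a few CPM in the libraries labelled WT to the level of an abundant transcript in the libraries labelled KO. It lies on the minus strand at chr1:85576899-85598817 (GRCm38). Its counts were 91, 94 and 128 in WT1 to WT3, and 23078, 34816 and 13602 in KO1 to KO3. The level was 3.30, 4.0 and 5.76 CPM in the WT libraries. In the KO libraries it was 1181 CPM in KO1, 1145 CPM in KO2 and 622 CPM in KO3. Every KO library stood far above every WT library, and KO3 was the lowest of the KO libraries. The means were 4.35 ± 1.27 CPM (SD, n = 3) and 982 ± 313 CPM (SD, n = 3), a ratio of 226, and the fitted log2 fold change was 7.82 (SE 0.385). Without KO3 the log2 fold change was 8.07. Of the 15009 genes tested, 27 had a larger log2 fold change than Sp110.

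Sp140, which encodes a chromatin reader with a bromodomain, lies on the plus strand at chr1:85600378-85645037, directly beside Sp110. Its counts were 48, 44 and 31 in the WT libraries and 827, 1040 and 454 in the KO libraries. This gave 1.74, 1.87 and 1.39 CPM in WT1 to WT3 and 42.3, 34.2 and 20.8 CPM in KO1 to KO3. The genotypes did not overlap, and KO1 was again the highest and KO3 the lowest of the KO libraries. The mean went from 1.67 ± 0.246 to 32.4 ± 10.9 CPM (SD, n = 3 each), a ratio of 19.4 and a log2 fold change of 4.27 (SE 0.303). Sp140 overlaps Gm10552 and Gm17017 on the opposite strand. A farther RefSeq start of Sp110, also on the opposite strand, lies within Sp140 as well. The strand setting of the counting is not given in the sources used here. Reads of these genes, or of a longer Sp110 transcript, and of Sp140 therefore cannot be told apart where they overlap.

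Sp100, the nuclear body gene after which the family is named, lies on the plus strand at chr1:85649988-85709998 and overlaps Gm17017 on the opposite strand. It had 246, 268 and 236 counts in the WT libraries and 789, 2265 and 1734 counts in the KO libraries. The level was 8.93, 11.4 and 10.6 CPM in WT1 to WT3, and 40.4, 74.5 and 79.3 CPM in KO1 to KO3. Here too the genotypes did not overlap, but KO1 was the lowest and KO3 the highest of the KO libraries. The mean went from 10.3 ± 1.26 to 64.7 ± 21.2 CPM (SD, n = 3 each), a ratio of 6.28 and a log2 fold change of 2.65 (SE 0.267).

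Gm16028 is an antisense transcript on the plus strand at chr1:85246851-85255465, opposite C130026I21Rik and Gm2619. It had 0 counts in WT1, 1 count in WT2 and 0 counts in WT3. In the KO libraries it had 744, 707 and 213 counts, or 38.1, 23.2 and 9.74 CPM. Its counts were therefore at or under the detection limit in all WT libraries and plainly above it in all KO libraries, with KO3 the lowest. C130026I21Rik, on the opposite strand, had 392, 306 and 183 CPM in KO1 to KO3. As the strand setting is not given, reads of that gene and of Gm16028 cannot be told apart where the 2 genes overlap. Over the summed counts of 1 in WT and 1664 in KO, scaled for depth, the ratio was 1698 with an exact 95% interval of 304 to 67121 that covers counting error only. Across all tested genes, the 3 KO values lay above the 3 WT values in 2019 of 15009, or 13.5%. The same held for all 4 cluster genes, which had been chosen on these values.

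**Figure D1:**
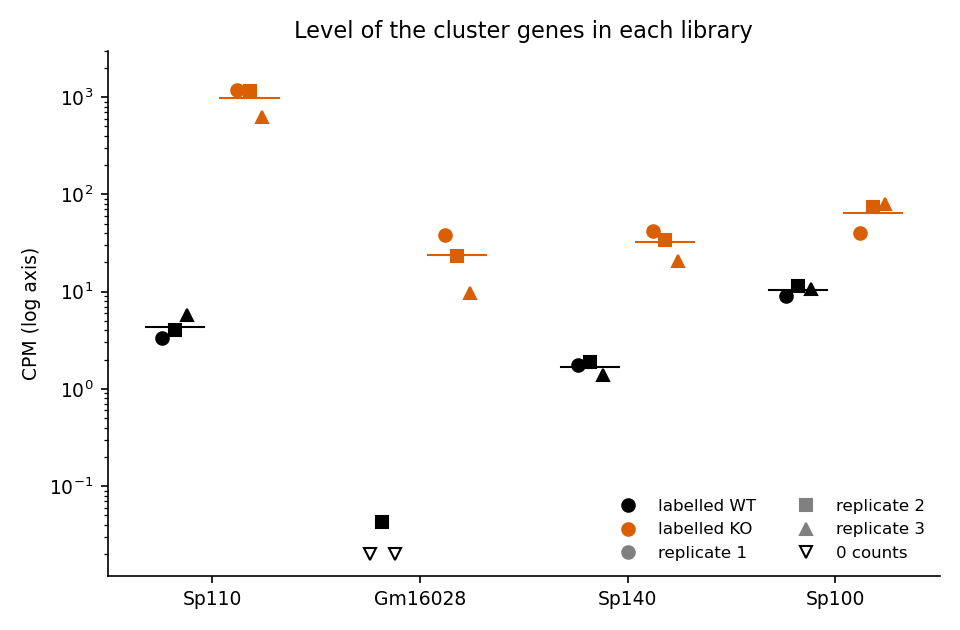
Level of Sp110, Gm16028, Sp140 and Sp100 in each library, in CPM on a log axis, with WT libraries in black, KO libraries in orange, a marker shape for each replicate number and short lines at the means. Open triangles at the bottom mark the 2 WT libraries with 0 counts of Gm16028. Sp110 reaches 622 to 1181 CPM in KO, and KO3 is the lowest KO library for Sp110, Gm16028 and Sp140 but the highest for Sp100.

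The order of the genes by level per kilobase of exon was different in each genotype. In the WT libraries Sp100 was the highest, at 1.36 ± 0.167 CPM per kb (SD, n = 3), followed by Sp110 at 0.642 ± 0.187 and Sp140 at 0.501 ± 0.0741 CPM per kb, whose ranges overlapped. Gm16028 was at 0.0159 CPM per kb. In the KO libraries Sp110 was at 145 ± 46.1 CPM per kb and Gm16028 at 26.6 ± 15.9 CPM per kb, and their ranges did not overlap. Sp140 at 9.74 ± 3.27 and Sp100 at 8.56 ± 2.81 CPM per kb had overlapping ranges, and Gm16028 was as low as 10.9 CPM per kb in KO3, within the range of Sp140.

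The cluster contains many near copies of its own genes, which bears on how reads were assigned. Over windows of 100 bases in the annotated transcripts, on either strand, 21.9% of the windows of Sp110 were also present in another gene, most often Gm16026 (12.6%), G530012D18Rik (4.15%) and Gm15753 (3.75%). For Sp140 the share was 35.6%, with Gm17017 as the main partner (15.2%), and for Gm16028 it was 25.8%, with C130026I21Rik as the main partner (23.8%). Sp100 was the most distinct, with 1.74% of its windows found elsewhere. Of the windows of G530012D18Rik (chr1:85575676-85577295, plus strand), 91.3% were also in Sp110. Only uniquely mapped reads were counted, so the counts of Sp110, Sp140 and Gm16028 are uncertain by the reads that these stretches share with a copy.

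The longest transcript of Gm16026 aligned to that of Sp110 over 2609 bases with 97.6% identity. Its counts equalled 32%, 34.0% and 32.3% of those of Sp110 in KO1 to KO3, against 1.10%, 6.38% and 6.25% in WT1 to WT3, where they were 1, 6 and 8 counts. Gm15753 is a pseudogene on another chromosome (chr5:137720354-137721740, minus strand). Its best alignment to the longest transcript of Sp110 covered 172 bases with 99.4% identity. That is not the full extent of the match: over all annotated transcripts, 27.5% of the 963 windows of Gm15753 were also in Sp110. The counts of Gm15753 equalled 8.43%, 9.51% and 8.43% of those of Sp110 in the KO libraries and 6.59%, 6.38% and 5.47% in the WT libraries. The shares of both genes were thus higher in all KO libraries than in any WT library. That of Gm15753 differed far less between the genotypes than that of Gm16026, over the same large range of Sp110 levels. Exact 95% intervals of the share of Gm15753 among reads of both genes were 7.44% to 8.11% in KO1 and 2.30% to 13.0% in WT1, so the small counts in WT do not set the genotypes apart.

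The primers that the study used to measure Sp110 by RT-PCR show the same overlap, and their sequences are given 5′ to 3′ for that reason.
Sp110 forward: atgaaggtgaacatcgcctatg
Sp110 reverse: ggacagagggaccagattttg
Both matched exactly in 3 annotated transcripts of Sp110, with a product of 132 bases in 2 of them and 1426 bases in the third. Both also matched the transcript of Gm15753, with a product of 132 bases as well, and the reverse primer matched 3 transcripts of Gm16026. A product of this length therefore does not separate Sp110 from Gm15753 in these annotated sequences.

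Most tested genes within and before the cluster were higher in the libraries labelled KO as well, and few of those after it. In edgeR's quasi-likelihood test with Benjamini-Hochberg adjustment over all tested genes, 6.47% of the 15009 genes passed an adjusted p of 0.05. Higher in KO were 4.38% of all genes and lower 2.09%, with a median log2 fold change of -0.0229. Of 25 tested genes within 1 Mb of the interval from Gm16028 to Sp100 (chr1:85246851-85709998), 12 were higher and 1 was lower. Of 8 tested neighbours before it, toward lower coordinates, 6 were higher, and of 12 after it, 1 was higher and 1 lower. All 5 tested neighbours that overlap the interval were higher, but 4 of these 5 and 3 of the 8 before it were under 1 CPM in a WT library and passed the filter only through the KO libraries, so their being tested already required a high level in KO. Counted only over genes with at least 1 CPM in every WT library, a restriction added after the data had been seen, 3 of 5 were higher before the interval, the 1 overlapping it was higher, and 1 of 11 was higher after it, against 3.36% of 14406 genes over the genome. The median log2 fold change of these 5 genes before the interval was 1.21, and that of the 11 after it was -0.114. Without KO1 or without KO2, 5 of 19 neighbours were higher and 0 lower, with 6 genes no longer passing the filter. Over all genes, 292 of 14733 were then higher without KO1 and 208 of 14745 without KO2. Without KO3, 9 of 19 neighbours were higher and 3 lower, against 2496 higher and 2395 lower of all 14802 genes then tested. Without KO1 or without KO2, neighbours and all genes called higher were thus both fewer than with all libraries. Without KO3 the neighbours called higher were also fewer, while those over all genes rose from 657 to 2496.

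Of the genes that overlap the interval, C130026I21Rik, at chr1:84992690-85270566, lies mostly before it and reaches into it at Gm16028. This gene, which matches Sp140 over 832 bases with 98.0% identity, had 6, 8 and 23 counts in WT and 7668, 9320 and 4004 counts in KO. Its log2 fold change was 9.14 (SE 0.586, adjusted p = 8.46e-05), and it lies opposite Gm16028. Gm16026 went from 0.217 CPM in WT to 323 CPM in KO, a log2 fold change of 10.6 (adjusted p = 3.5e-05). Gm7592, which matches Sp100 over 355 bases with 98.3% identity, went from 4.58 to 70.5 CPM (log2 fold change 3.94, SE 0.227, adjusted p = 4.71e-05). Gm16094 lies on the plus strand, just beyond the GENCODE start of Sp110 but before a farther RefSeq start of that gene. As the strand setting is not given, its reads may not be separable from those of a longer Sp110 transcript. Gm16094 had 2 counts in WT and 433 in KO, a depth-scaled ratio of 221 (exact 95% interval 60.8 to 1830). Gm10552, opposite Sp140, had 2 and 252 counts, a ratio of 129 (35.2 to 1068).

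Before the interval, the called genes were mostly predicted genes and, farthest out, a transporter gene. A530040E14Rik (log2 fold change 6.04), Gm15433 (5.36), A530032D15Rik (3.53), Gm7609 (3.31) and Gm6264 (2.75) were all called higher. A530032D15Rik matched Sp140 over 888 bases with 97.2% identity. Farther out, Slc16a14, a monocarboxylate transporter family member that shared no 100-base window with another gene, went from 27.2, 26.1 and 31.7 CPM in WT to 71.6, 58.9 and 65.8 CPM in KO (log2 fold change 1.21, adjusted p = 0.00216). The farther genes Fbxo36 (0.383, adjusted p = 0.241) and Trip12 (0.825, adjusted p = 0.0641) were not called.

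On the other side, the nearest tested gene to Sp100 was A630001G21Rik at chr1:85717083-85778643. It had 2.03, 2.85 and 2.02 CPM in WT and 2.1, 2.27 and 2.06 CPM in KO, so the genotypes overlapped, and its log2 fold change was -0.0999 (adjusted p = 0.796). The next, Cab39, a cofactor of the LKB1 kinase, had a log2 fold change of 0.369 (adjusted p = 0.253). The 2 called genes on this side were Ncl, the nucleolar protein nucleolin, which went from 226 to 490 CPM (log2 fold change 1.12, adjusted p = 0.0285), and Nppc, the C-type natriuretic peptide precursor, which went from 4.16 to 2.16 CPM (-0.945, adjusted p = 0.0369). Among tested genes, all log2 fold changes above 2 in this window lay between Gm15433 and Sp100.

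**Figure D2:**
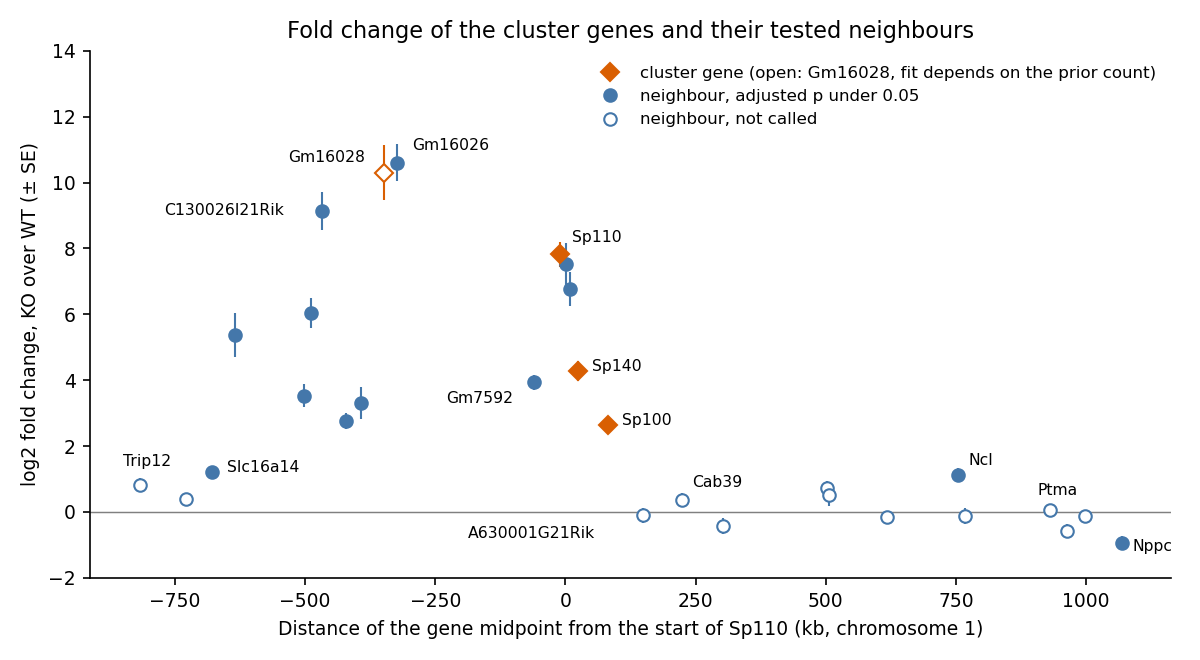
Fitted log2 fold change (KO over WT, bars are SE) of the 4 measured cluster genes (orange diamonds) and the 25 tested neighbours (blue circles, filled where the adjusted p was under 0.05) by distance of the gene midpoint from the start of Sp110 in kb. The fit of Gm16028 (open diamond) depends on the prior count because WT held 1 count. Gm16026, next to Gm16028, is at 10.6, Sp100 is at 2.65, and the next gene after it is at -0.0999.

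A further 11 genes before or overlapping the interval had counts too low to be tested. None of the 11 had more than 4 counts in any WT library, and 6 had 0 counts in all WT libraries. In 7 of the 11 every KO library lay above every WT library. Against a limit of 3 counts over the WT group, Gm16025 was at least 20.1-fold higher, Gm16038 at least 19.1-fold, Gm7582 at least 16.7-fold and Gm2666 at least 16.7-fold higher. Gm2619, opposite Gm16028, had 2 counts in WT and 77 in KO, a ratio of 39.3 (exact 95% interval 10.5 to 330). The same separation held in 5.24% of all 11805 untested genes with counts. Together with the tested ones, 20 of the 24 neighbours before or overlapping the interval were separated in this direction, against 9.84% of all 26814 genes with counts. These neighbours are not all separate measurements. C130026I21Rik overlaps many of the others, and the strand setting is not given. Some also share sequence: 61.1% of the 100-base windows of Gm15433 were also in other genes, and 58.1% of those of Gm7582, but 0% for Gm16094 and Gm16038.

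Interferon-induced genes outside the cluster rose too in the libraries labelled KO. Of 37 such genes, all tested, 33 (89.2%) were called higher and none lower, with a median log2 fold change of 2.19 and a range from 0.776 to 5.40. The highest were the oligoadenylate synthetase Oas3 (5.40, adjusted p = 0.00221), Ifit1, which binds viral RNA ends (5.03, adjusted p = 0.0024), and Oas1a (5.0, adjusted p = 0.000171). The lowest called were Trim25, a ubiquitin ligase of RNA sensing (1.02, adjusted p = 0.00555), Ifi35 (1.10, adjusted p = 0.0224) and the peptide transporter gene Tap1 (1.21, adjusted p = 0.0266). The count depended on the libraries used: it was 18 of 32 without KO2, 19 of 37 without WT1 and 20 of 37 without WT3, with 0 genes lower in each. Over all genes, 208 of 14745, 315 of 14870 and 323 of 14864 were called higher in these runs, against 657 with all libraries. Without KO3 the count of interferon-induced genes was 31 of 32, where 16.9% of all 14802 genes were called higher. Of the 37, 8 passed the filter only through the KO libraries, and of the other 29, 26 were called.

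The interferons themselves were scarcely detected. Of 21 interferon genes listed, 8 had counts and 0 passed the filter. The most abundant were Ifnk, the keratinocyte interferon, with 1, 4 and 8 counts in WT1 to WT3 and 14, 22 and 10 counts in KO1 to KO3, and Ifna13, with 0, 2 and 0 counts in WT and 12, 19 and 3 counts in KO. Ifng had 0 counts in all WT libraries and 0, 3 and 1 counts in KO.

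Of 19 receptor and signal transducer genes, 5 (26.3%) were higher and none lower. Among these were factors that carry the signal to the nucleus, Irf7 (log2 fold change 1.98, adjusted p = 0.00864), Irf9 (1.84, adjusted p = 0.00119) and Stat2 (1.60, adjusted p = 0.0121), and the kinase Jak1 (0.624, adjusted p = 0.0482). The receptor chains Ifnar1 (0.118), Ifnar2 (0.0654), Ifnlr1 (0.0288), Ifngr1 (-0.415) and Ifngr2 (-0.32) did not pass the test. The count was 1 without WT1, 1 without WT3 and 3 without KO2. Genes called higher over all tested genes fell in the same runs, from 657 to 315, 323 and 208.

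Beside these genes, the rises of the cluster differed in size. No gene of the interferon-induced list had a log2 fold change as large as that of Sp110. Of the 37 genes, 6 exceeded Sp140 and 14 exceeded Sp100, so Sp140 and Sp100 both lay within the range of the list. To compare them in each library, the mean log2 CPM of the list was subtracted from that of each cluster gene. This mean was 1.80 ± 0.04 in WT and 4.27 ± 0.64 in KO (SD, n = 3 each).

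Relative to this mean, Sp100 stayed nearly level, at 1.57 ± 0.14 on the log2 scale in WT and 1.68 ± 0.20 in KO, and the ranges of the genotypes overlapped. Sp110 went from 0.29 ± 0.39 to 5.61 ± 0.96, and its lowest KO value of 4.77 lay above its highest WT value of 0.73. Sp140 went from -1.05 ± 0.21 to 0.68 ± 1.04, with values of 1.86, 0.33 and -0.13 in KO1 to KO3. The signed difference from the list mean thus went up by 5.31 for Sp110, 1.73 for Sp140 and 0.11 for Sp100 on the log2 scale. Sp140 lay below the mean in all WT libraries and still below it in KO3. These differences were not tested, since the genes were chosen on the same contrast.

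**Figure D3:**
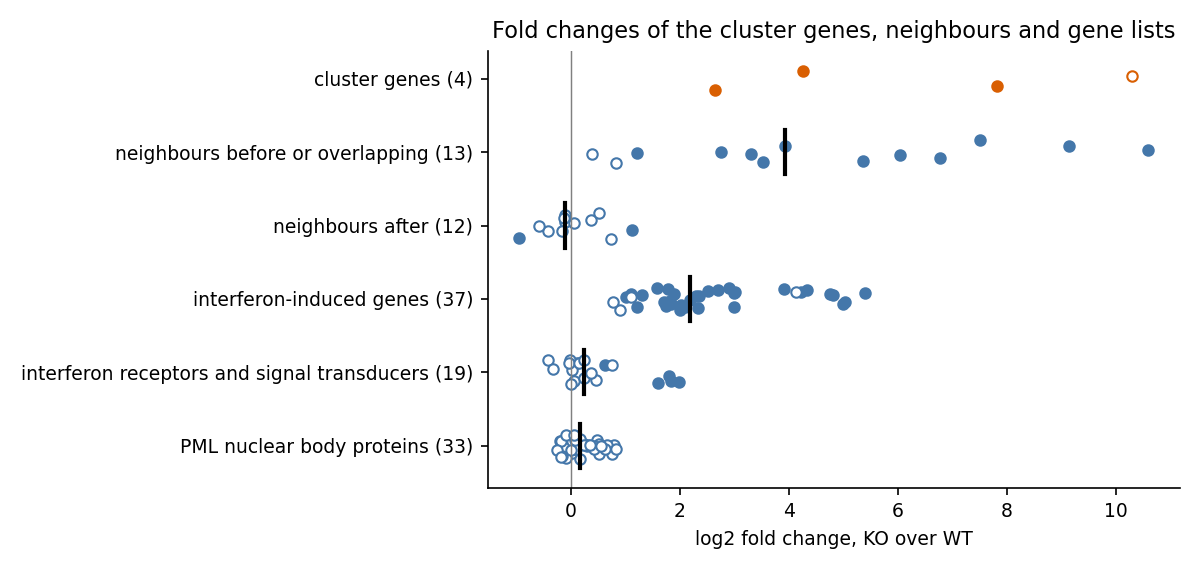
Fitted log2 fold changes (KO over WT) of the 4 measured cluster genes, the tested neighbours, interferon-induced genes, interferon receptors and signal transducers, and PML nuclear body proteins, with the number of genes in brackets, filled blue points where the adjusted p was under 0.05 and black lines at medians. Orange points are the cluster genes, without a test, and the open one is Gm16028, whose fit depends on the prior count. The median of the interferon-induced genes is 2.19 and that of the PML nuclear body proteins is 0.166.

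The 3 KO libraries ranked differently in the 2 sets. Among the 33 interferon-induced genes called higher, KO1 was the lowest KO library in 30 and KO3 in 3, and the median ratio of KO3 to the mean of KO1 and KO2 was 1.34. Among the 11 neighbours called higher before or overlapping the interval, KO3 was the lowest in 10 and KO1 in 0, with a median ratio of 0.524. The exception was Slc16a14, where KO2 was the lowest. Several of these 11 neighbours overlap one another or share sequence, so they are not 11 separate measurements. The ratio was 0.535 for Sp110, 0.543 for Sp140 and 0.318 for Gm16028, against 1.38 for Sp100. In these libraries Sp110, Sp140 and Gm16028 thus had KO3 lowest like most of these neighbours, and Sp100 had KO1 lowest like most of these interferon-induced genes. Among all 657 genes called higher, KO3 was the lowest in 65.0%, KO1 in 21.9% and KO2 in 13.1%, so an order with KO3 lowest was the common one. Over all 15009 tested genes, KO1 was the lowest in 33.7% and KO3 in 41.8%. In some sets of cell type markers KO1 was also the lowest KO library and KO3 the highest. This held in all 4 tested T cell and all 4 skeletal muscle markers, and in 3 of 4 fibroblast markers. Col1a1, for one, had 458, 843 and 1813 CPM in KO1 to KO3. Other sets were mixed or went another way. KO1 was lowest in 3 of 6 macrophage, 2 of 3 general leukocyte, 1 of 3 endothelial and 1 of 6 keratinocyte markers. KO3 was lowest in 3 of 6 keratinocyte and 2 of 3 dendritic and Langerhans cell markers. The differences in order, and the part of tissue composition in them, were not tested.

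**Figure D4:**
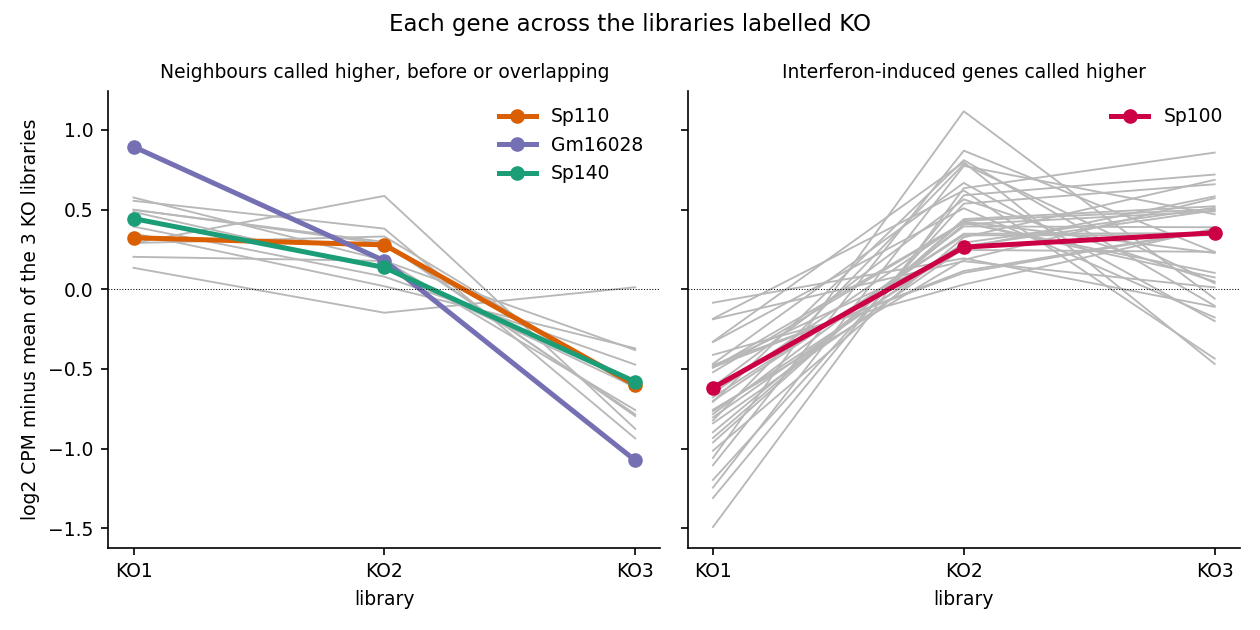
Level of each gene in KO1, KO2 and KO3 as log2 CPM minus its mean over these 3 libraries, with 1 line per gene, since the libraries have no order. Grey lines are the 11 neighbours called higher before or overlapping the interval (left) and the 33 interferon-induced genes called higher (right). Sp110, Gm16028 and Sp140 are lowest in KO3 with 10 of the 11 neighbours, and Sp100 is lowest in KO1 with 30 of the 33 interferon-induced genes.

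Genes most like each cluster gene across the 6 libraries were ranked by the root mean square difference of log2 CPM, each gene centred on its own mean. For Sp110 these were Gm15753 (0.234), Gm12859 (0.295), Olfr815 (0.306), B020031M17Rik (0.312) and Gm5286 (0.348). None of these 5 lies on chromosome 1. Gm12859, Olfr815, B020031M17Rik and Gm5286 had 0 counts in all WT libraries, so their likeness rests on the prior count of 0.5. For Sp140 they were Lmx1a (0.125), Ric3 (0.171), Dhtkd1 (0.214), Gm7592 (0.225) and Mecom (0.246), of which Lmx1a and Gm7592 lie on chromosome 1 and only Gm7592 within the interval. For Sp100, ranked in the same way after its values were seen, they were Mx2 (0.204), Parp9 (0.213), Xaf1 (0.247), Dhx58 (0.25) and H2-T10 (0.28). Of these, Mx2, Parp9, Xaf1 and Dhx58 are on the list of interferon-induced genes, and H2-T10 is a class I major histocompatibility gene.

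Promoter sequence was examined for the letters that interferon response elements use. RefSeq windows of 300 bases around gene starts (GRCm38.p6, 250 before and 50 after the start) were at hand for Sp110, Sp140 and Sp100. The core of the interferon-stimulated response element, a pair of GAAA runs with any 2 bases between them on either strand, occurred in 3.44% of 32851 windows and in 15 of 29 interferon-induced genes with a window (51.7%). It occurred in 0 of the 3 cluster genes. The gamma-interferon activation site, TTC and GAA with any 3 bases between them, occurred in 8.30% of all windows, in 7 of 29 interferon-induced genes and in 0 of the 3. A form with any 3 bases between the GAAA runs was chosen after the windows had been read, and it occurred in 2.75% of all windows, in 5 of 29 interferon-induced genes, and in Sp110 and Sp100. Both matches read from the strand opposite to the gene, and are shown on the gene's strand with the motif in capitals.
Sp110, chr1:85598782-85598810, minus strand, GRCm38: tgagatcacTTTCATTTTTCttttcttga
Sp100, chr1:85649932-85649960, plus strand, GRCm38: gagaattacTTTCGTTTTTCttttcccca
In Sp110 the motif lies at bases 10 to 20 after one of its 2 annotated starts, with no match in the window of the other, and in Sp100 at bases -47 to -37 from one annotated start and -73 to -63 from the other. The 250 bases before the first of these Sp100 starts are shown to place the match. The match in Sp110 lies after its start, outside such a stretch.
Sp100 promoter, chr1:85649738-85649987, plus strand, GRCm38: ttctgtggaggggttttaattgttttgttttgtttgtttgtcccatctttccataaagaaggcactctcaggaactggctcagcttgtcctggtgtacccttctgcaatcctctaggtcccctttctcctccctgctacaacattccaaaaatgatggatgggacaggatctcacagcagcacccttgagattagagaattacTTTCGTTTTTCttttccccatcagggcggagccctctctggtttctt
A match is a run of letters only, and neither a bound site nor the absence of one was measured.

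Other nuclear body genes did not share the rise of the cluster. Of 33 PML nuclear body and SUMO pathway genes, 0 were called by edgeR's quasi-likelihood test, 7 had an unadjusted p under 0.05, 1 was called by DESeq2 and 0 by the exact test. Their median log2 fold change was 0.166 and their range -0.259 to 0.821. Over all tested genes, 29.6% had an unadjusted p under 0.05. Without KO3, 12 were called, all higher, where 33.0% of all 14802 genes then tested were called and 16.9% were higher. Pml, the scaffold of the bodies that hold SP100, had 28.6 ± 2.61 CPM in WT and 39.9 ± 13.4 CPM in KO (SD, n = 3 each; log2 fold change 0.48, adjusted p = 0.226). Daxx, a histone chaperone of these bodies, had a log2 fold change of 0.0288 (adjusted p = 0.924). Among genes outside the cluster with a SAND domain, Deaf1, Gmeb1 and Gmeb2 had log2 fold changes of -0.0973 to 0.148, with 0 called by edgeR or DESeq2 and 0 at an unadjusted p under 0.05. Aire, at 0.596 CPM in WT and 0.701 CPM in KO, was not tested.

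Because SP110 and SP140 are known from leukocytes, leukocyte markers were read beside their levels. The 4 B cell markers, Ms4a1 among them, summed to 1.13 to 1.32 CPM in WT and 0.789 to 1.28 CPM in KO, and each was under 1 CPM in every library. The 3 natural killer cell markers summed to 0.180 to 0.255 CPM in WT and 0.256 to 0.366 CPM in KO. The 6 T cell markers summed to 5.31 to 8.72 and 7.21 to 14.4 CPM, the 6 measured macrophage markers to 242 to 282 and 189 to 280 CPM, the 3 measured neutrophil markers to 2.25 to 3.19 and 2.1 to 3.99 CPM, and the 3 general leukocyte markers to 89.7 to 116 and 69.8 to 136 CPM. The 5 markers of dendritic and Langerhans cells summed to 12.4 to 16.5 CPM in WT and 26.1 to 29.4 CPM in KO. Of 17 tested leukocyte markers, 1 was called, Cd207, the Langerhans cell lectin, which went from 3.67 to 12.9 CPM (log2 fold change 1.81, adjusted p = 0.000932). Ptprc, the common leukocyte antigen, had a log2 fold change of 0.673 (adjusted p = 0.115). The part of leukocytes in the levels of the cluster genes was not tested.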

How the data were processed

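The deposited values are read counts per gene symbol, whole numbers without normalization, that the authors made with TopHat2 2.0.8 and Bowtie2 2.1.0 on GRCm38 and with HTSeq-count from uniquely mapped reads. Strand setting and overlap mode are not given in the sources used here. All 6 libraries were used, and 0 columns were left out. The 15009 of 26814 genes that reached 1 CPM in 3 or more libraries were scaled by TMM and compared with edgeR 4.0.16 (estimateDisp, glmQLFit with legacy=FALSE, glmQLFTest) in R 4.3.3, with Benjamini-Hochberg adjustment over all of them and a threshold of 0.05. Python 3.11.15 and blastn 2.17.0 were used for sequences. SE are those of the fit, n counts mice.

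Members and gene lists were chosen with earlier results of these data known, and the members were given no test. Genes are named by a rule: all members, from each list the 3 highest and 3 lowest called genes (all where 6 or fewer), Stat2, Irf7, Irf9, Pml, Daxx and Ptprc, all called neighbours with the nearest tested one, and the 5 genes most like Sp110 and Sp140. Other names (Sp100's likest genes, single keratin and collagen genes, interferon ligands, receptor chains, untested neighbours, Fbxo36, Trip12, Cab39, Cd207) were chosen after values were seen. Positions are from GENCODE M21 (GRCm38), promoters from RefSeq (GRCm38.p6). Alternatives were DESeq2 1.42.0, the exact test, limma 3.58.1 (voom), other scalings and filters, a replicate block, other windows and left-out libraries. Single values of some listed genes are not reported here. The procedure was tested on simulated data.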

Additional observations from a re-analysis of the deposited data

How the results depend on the processing

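Under the alternatives run, the log2 fold change was 7.65 to 8.07 for Sp110 (SE of the main fit 0.385). It was 4.10 to 4.52 for Sp140 (SE 0.303) and 2.48 to 2.96 for Sp100 (SE 0.267). The shift of Sp100 from 2.65 to 2.96 without KO1 was larger than its SE, and the other shifts were smaller than the SE. Gm16028 was left out because its fit depends on the prior count, and the interferon ligands because none was tested. Over all genes, 971 calls became 2568 with DESeq2's Wald test, 2238 with the exact test and 226 to 4891 with 1 library left out, the highest without KO3. Leaving out 1 library gave 18 to 31 calls for the interferon-induced genes (33 with all), 1 to 7 for receptors and transducers (5), 0 to 12 for PML body proteins (0, and 1 with DESeq2) and 5 to 12 for the neighbours (13). Neighbour calls were 6 with at least 10 counts in every library and 23 without a filter, with 19 and 46 genes tested. The cause of these changes was not tested. The counts of genes lowest in KO1 or KO3 stayed at 30 to 31 of 33 and 10 of 11 under 3 other scalings, added after the data had been seen. A replicate block gave 797 calls over all genes, 31 for interferon-induced genes, 4 for receptors and transducers, 0 for PML body proteins and 11 for neighbours. Same-numbered libraries correlated at -0.188, 0.281 and 0.301, so the numbers were not taken as pairs. With 3 mice per genotype, small changes and genes under 0.0986 to 0.154 CPM were not detectable.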
